A study of Homo sapiens with 11 samples.

Results

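The genes for the protein subunits of the 5 oxidative phosphorylation complexes were examined in MDA-MB-231 cells, an established breast cancer line. They were taken by symbol from a table of 37247 gene identifiers: the NDUFA, NDUFB, NDUFC, NDUFS and NDUFV genes, SDHA to SDHD, the UQCR genes and CYC1, COX4 to COX8, the ATP5 genes, and the protein genes of the mitochondrial genome. Of 216 rows whose symbol matched, 115 pseudogenes were dropped, which left 101 genes, 88 nuclear and 13 mitochondrial. Complex I had 43 of them, complex II 4, complex III 11, complex IV 21 and the ATP synthase 22.

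The study combined chromatin immunoprecipitation for H2AS40Gc and 3 histone methylation marks in this line with RNA sequencing after a knockdown of S40-type H2A. The RNA libraries are 3 labelled Control-KD, whose genotype is given as WT, and 3 labelled H2AS40-KD, whose genotype is given as a knockdown of S40-type H2A. All 6 came from MDA-MB-231, and the labels give no agent, dose or time for either group and no target gene. Expression was deposited as TPM, a length-corrected share of each library's RNA scaled to 1000000.

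Oxidative phosphorylation takes electrons from NADH (complex I) and succinate (complex II) through coenzyme Q, complex III and cytochrome c to oxygen at complex IV. Complexes I, III and IV pump protons across the inner mitochondrial membrane, and the ATP synthase lets them flow back to make ATP. Apart from complex II, which is wholly nuclear encoded, each complex is built from subunits of both genomes, so its assembly draws on transcription in the nucleus and in the mitochondrion.

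Libraries were close to one another as a whole: 14073 to 14120 genes reached 1 TPM, and Pearson r of log2 values was 0.982 to 0.989 within groups and 0.982 to 0.987 between them, across genes, which are not independent replicates. Control-KD replicate 3 stood apart on the first principal component (29.6% of the variance), at -31.2 against -0.784 to 12.0 for the others. H2AC25, one of the H2A genes whose protein is recalled to carry a serine at position 40 (no protein sequence was at hand to check it), had 32.4, 33.5 and 31.3 TPM in the controls and 33.3, 34.8 and 32.6 in the labelled libraries, so no decrease was seen, and H2AC7 was at most 2.97 TPM. The 2 groups are therefore called the controls and the labelled libraries. VIM, KRT8 and KRT18, filament genes found in this line, were high (VIM 2258 and 2270 TPM as group means). CAV1, from the same list of 7 mesenchymal line genes, was called lower in the labelled libraries (149 and 111 TPM, limma adjusted p = 0.0173). CD44 (359 and 310 TPM), AXL (204 and 192) and EGFR (47.4 and 43.1) were also lower, without overlap, at an unadjusted limma p under 0.05. Of all tested genes 7.75% were lower at that p. The list, mostly VIM, KRT8 and KRT18 by TPM, summed to 8845 to 8908 TPM against 8687 to 8746. The part of these differences in the results below was not tested. Some luminal factors were measurable too, although the line is known as hormone receptor negative. GATA3 had 467 and 448 TPM, FOXA1 87.5 and 89.7, ERBB2 30.8 and 28.9, and ESR1 14.9 and 19.5. PGR was low, at 1.70 and 1.80 TPM. The 5 luminal genes summed to 579 to 618 TPM in the controls and 573 to 605 in the labelled libraries. Blood cell markers summed to 8.84 to 13.0 and 7.33 to 11.8 TPM, with MS4A1 at 0, and fibroblast and endothelial markers to 6.86 to 9.84 and 7.46 to 10.2 TPM.

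Promoters of 70 of the 88 nuclear genes were matched in RefSeq (GRCh38.p14), in windows of 300 bases, from 250 before to 50 after the start, and searched on both strands for letters bound by regulators of respiratory genes. CGCATGCG, the core of the NRF1 site (nuclear respiratory factor 1), lay in 10 of the 70 (14.3%), against 2.88% of 15843 protein-coding promoters and 3.88% of the 10291 whose genes were tested here. AANATGGCG, letters of YY1, lay in 16 (22.9%), against 4.81% and 6.86%. CCGGAAG, letters of GABP and other ETS factors, lay in 20 (28.6%), against 14.2% and 19.4%. GGGCGG (SP1) lay in 42 (60%), against 58.5% and 70.7%, and CCAAT (NFY) in 25 (35.7%), against 36.4% and 36.6%. A match is only a match of letters. The stretch printed for ATP5MC2 lies before the start used here but inside the gene's own annotated span, chr12:53665170-53681423. The following stretches before the start used, 5′ to 3′ on the gene's strand, show the NRF1 letters in capitals. They belong to members of complex I and of the ATP synthase, where the stretch as printed overlaps no other annotated gene.
ATP5F1C, chr10:7788126-7788176, plus strand: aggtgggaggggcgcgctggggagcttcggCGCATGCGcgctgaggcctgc
ATP5MC2, chr12:53676087-53676154, minus strand: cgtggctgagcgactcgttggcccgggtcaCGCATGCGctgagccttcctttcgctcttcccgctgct
ATP5ME, chr4:674316-674383, minus strand: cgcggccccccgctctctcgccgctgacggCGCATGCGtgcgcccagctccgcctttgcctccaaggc
NDUFB4, chr3:120596148-120596215, plus strand: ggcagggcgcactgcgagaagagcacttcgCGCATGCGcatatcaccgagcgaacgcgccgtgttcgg
NDUFS7, chr19:1383803-1383870, plus strand: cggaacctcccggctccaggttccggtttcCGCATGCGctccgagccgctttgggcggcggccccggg

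The subunit genes covered a wide range of levels, and mitochondrial genes lay mostly above nuclear ones. Means of the mitochondrial genes over the 6 libraries ran from 839 TPM for MT-ND5 to 4519 for MT-CO2, with a median of 2192. Nuclear genes that passed the filter ran from 3.62 TPM for COX7B2 to 1200 for COX6C, with a median of 209. The 13 mitochondrial genes summed to 3.37% of all TPM in the controls and 3.30% in the labelled libraries, and the 88 nuclear genes to 2.30% and 2.28%. Within complexes, nuclear levels spread unevenly: complex I ran 14.5-fold from NDUFA3 (33.7 TPM) to NDUFS5 (490 TPM), while the 4 complex II genes lay within 1.31-fold, from SDHD (108 TPM) to SDHC (141 TPM).

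**Figure D1:**
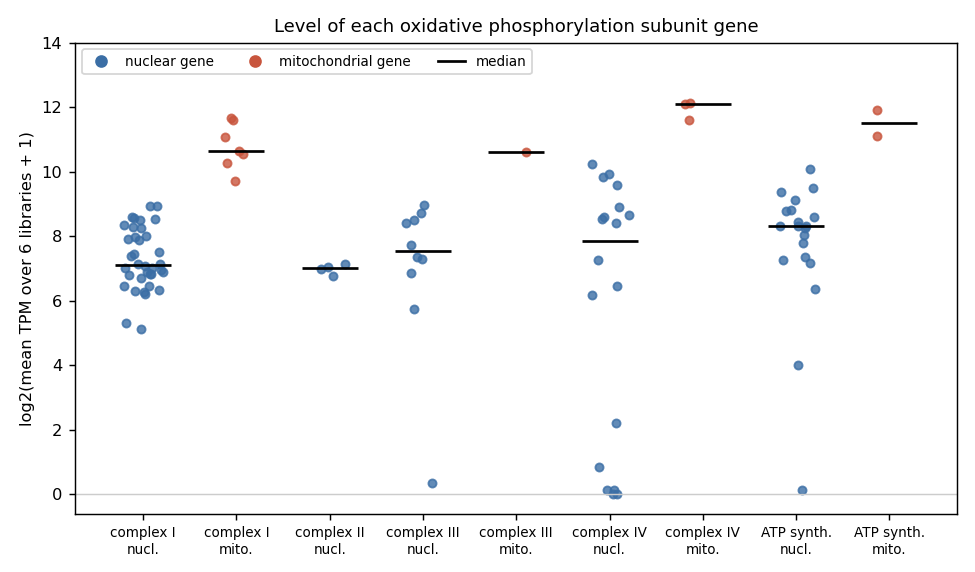
Mean level of each of the 101 subunit genes over the 6 libraries, as log2(mean TPM + 1), by complex and genome; black bars are medians over the genes shown. Mitochondrial genes lie between 839 and 4519 TPM, and 7 nuclear genes lie near 0.

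Not reaching 1 TPM in 3 libraries, 7 nuclear genes were not tested: COX4I2, COX6A2, COX6B2, COX7A1, COX8C, UQCRHL and ATP5MGL. COX4I2 and COX6A2, the isoforms known from lung and from heart and skeletal muscle, were listed at 0 in all 6 libraries. The widely expressed partners of these isoforms were abundant: COX4I1 had 767 ± 19.0 TPM (SD, n = 3) in the controls and 777 ± 17.5 in the labelled libraries, COX6A1 had 935 ± 23.4 and 911 ± 9.89, and COX8A had 965 ± 39.1 and 972 ± 49.6. COX7A1, the muscle isoform of COX7A2, had 0.639, 0.536 and 0.126 TPM in the controls and 1.67, 1.13 and 0.631 in the labelled libraries, at most 0.403% of the 2 isoforms together.

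No subunit gene was called different between the groups. With limma on log2(TPM + 1) and Benjamini-Hochberg adjustment over all 14160 tested genes, 0 of the 94 tested members had an adjusted p under 0.05, where 178 of all genes (1.26%) did, 73 higher (0.516%) and 105 lower (0.742%) in the labelled libraries. At an unadjusted p under 0.05 there were 12 (1 higher, 11 lower), or 12.8% of members against 16.5% of all genes (8.76% higher, 7.75% lower). The groups did not overlap for 17 members (3 higher, 14 lower), or 18.1% against 24.2% of all genes (12.9% higher, 11.3% lower). With directions pooled both shares were below those of all genes, but the lower direction alone was above: 11.7% of members were lower at an unadjusted p under 0.05 and 14.9% lower without overlap, while 1.06% and 3.19% were higher. In bulk RNA, fewer cells of a kind and less RNA per cell cannot be told apart. Nothing in the labels says whether the libraries came from separate cultures, so p-values measure only the spread between these libraries.

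The intervals were narrow. For 88 of the 94 members the 95% confidence interval of the difference lay within a 1.25-fold change either way, and for 39 within 1.1-fold, while 6485 of the 14160 tested genes lay within 1.25-fold. The 6 exceptions were NDUFA3, NDUFA7, UQCRC1, COX7B, COX7B2 and ATP5MF-PTCD1, a read-through transcript over ATP5MF and its neighbour. ATP5MF-PTCD1 had 14.5, 15.1 and 11.1 TPM against 18.4, 15.7 and 15.3, with a limma adjusted p of 0.353. The median difference, as log2, was -0.01 over the 94 members and 0.01 over all genes, and the median size of a difference was 0.05 against 0.10. The members and all genes were not matched for level. The tested members had a median of 283 TPM, and the filter admitted genes from 1 TPM. Below 0 were 56 members and above 0 were 38, and of all tested genes 46.9% were below 0.

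**Figure D2:**
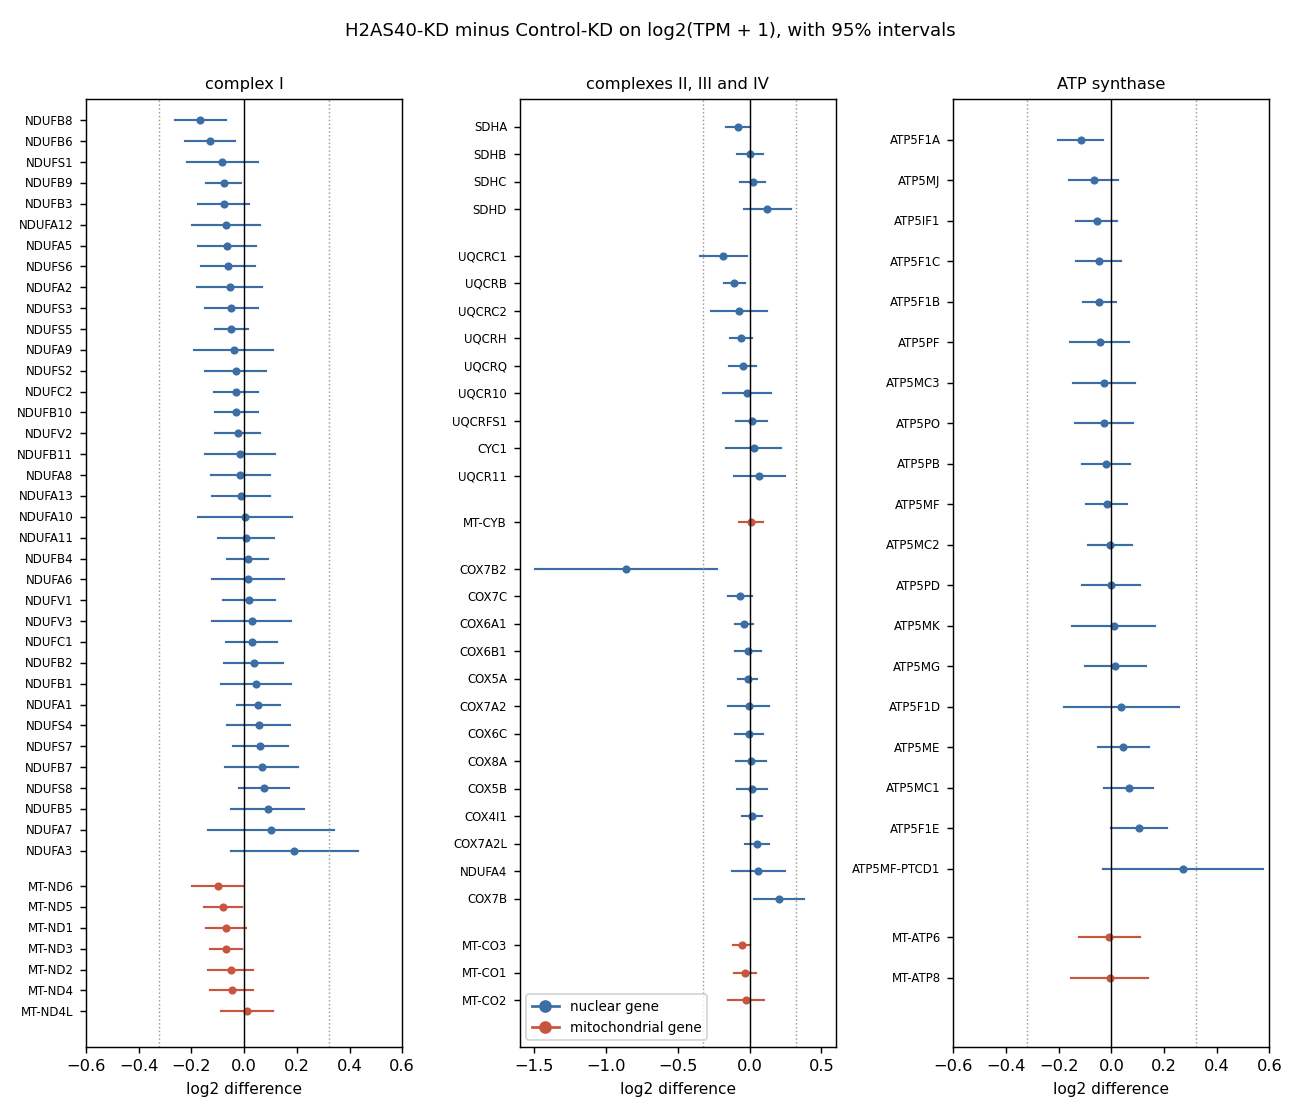
Difference of each of the 94 tested subunit genes on log2(TPM + 1), H2AS40-KD minus Control-KD, with limma 95% intervals, not adjusted for the number of genes; the middle panel has a wider axis and dotted lines mark a 1.25-fold change. COX7B2 stands farthest from 0, at -0.86, and 88 intervals lie between the dotted lines.

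Complex I, the NADH dehydrogenase, had the member with the smallest p. Its 36 nuclear genes had a median log2 difference of -0.01, with 19 below 0 and 17 above. Of these 16.7% did not overlap (1 higher, 5 lower), against 24.2% of all tested genes (12.9% higher, 11.3% lower). NDUFB8, an accessory subunit of the membrane arm, had 259, 267 and 275 TPM in the controls and 249, 233 and 232 in the labelled libraries. All 3 labelled libraries were below all 3 controls. The log2 difference was -0.17 ± 0.04 (SE), with a limma adjusted p of 0.120, and over the alternative settings that p ran from 0.0546 to 0.291. NDUFB6 and NDUFB9, 2 more accessory subunits of the same arm, were chosen after their values were seen. NDUFB6 had 77.3, 74.6 and 77.7 TPM against 70.7, 70.6 and 68.3, and NDUFB9 had 388, 398 and 408 against 377, 378 and 376. Both sets of values were separate, and the limma adjusted p was 0.191 for NDUFB6 and 0.244 for NDUFB9. NDUFB3, also named after its values were seen, was lower without overlap, at 117 ± 1.79 and 111 ± 4.15 TPM (SD, n = 3; limma adjusted p = 0.393). Among the other NDUFB genes NDUFB5 lay at 109.6, 97.0 and 113 against 113, 114 and 112 TPM, and NDUFB4, whose NRF1 letters are shown above, at 305 ± 8.24 against 308 ± 6.72 (SD, n = 3). Members of the arm thus lay on both sides of 0. The most abundant, NDUFS5, lay at 498 ± 4.82 and 481 ± 9.42 TPM (SD, n = 3), with a log2 difference of -0.05 and no overlap.

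The 7 core nuclear subunits of complex I, which carry the flavin and the iron-sulfur clusters, ranged in log2 difference from -0.08 for NDUFS1 to 0.08 for NDUFS8, and 0 of 7 had an unadjusted limma p under 0.05. NDUFS7, the core subunit next to the quinone site, had 77.4, 78.0 and 76.1 TPM against 78.1, 79.1 and 84.6, a narrow separation that rested on a gap of less than 1 TPM. NDUFA3, the lowest of complex I, had 33.1, 29.8 and 31.1 TPM against 31.9, 34.6 and 41.9, with 1 library labelled H2AS40-KD well above the rest.

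Complex II, succinate dehydrogenase, also works in the citric acid cycle. Its catalytic flavoprotein SDHA had 127, 126 and 131 TPM in the controls and 121, 123 and 119.6 in the labelled libraries. The groups did not overlap, and the log2 difference was -0.08 (limma adjusted p = 0.301). The iron-sulfur subunit SDHB had 132 ± 2.44 and 132 ± 4.19 TPM (SD, n = 3). The membrane anchors differed in sign from SDHA: SDHC had 140.0 ± 2.75 and 142 ± 4.32 TPM, and SDHD had 97.7, 103 and 108 against 109.9, 104 and 123, which overlapped. The sum over the 4 genes was 497 to 511 TPM in the controls and 498 to 523 in the labelled libraries.

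Complex III, the cytochrome bc1 complex, was the only complex whose summed nuclear messages did not overlap between the groups. The sum was 2368, 2374 and 2360 TPM in the controls and 2237, 2302 and 2310 in the labelled libraries, 3.55% lower on average. The sum was not tested. Of the 9 tested nuclear genes 2 did not overlap, both lower (22.2%, against 24.2% of all tested genes, 11.3% lower). UQCRB, a small subunit of the quinone-binding region, had 446, 431 and 427 TPM against 393, 413 and 406. All 3 labelled libraries were lower, and the log2 difference was -0.11 ± 0.03 (SE; limma adjusted p = 0.174). UQCRC1, a core protein on the matrix side, chosen after its values were seen, had 217, 206 and 245 TPM against 185, 205 and 196. The lowest control and the highest labelled library were close, and the log2 difference was -0.18 (limma adjusted p = 0.267). UQCRH, the hinge protein and the most abundant nuclear member, had 515 ± 15.2 and 493 ± 12.6 TPM (SD, n = 3) and overlapped. CYC1 and UQCRFS1, the electron-carrying cytochrome c1 and Rieske subunits, had log2 differences of 0.03 and 0.01. CYC1 had 381, 384 and 308 TPM in the controls and 366, 365 and 357 in the labelled libraries. The labelled libraries were thus above only Control-KD replicate 3, the library that stood apart, and below the other controls. UQCRFS1 had 52.2 ± 1.30 and 52.7 ± 1.64 TPM (SD, n = 3) and overlapped.

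**Figure D3:**
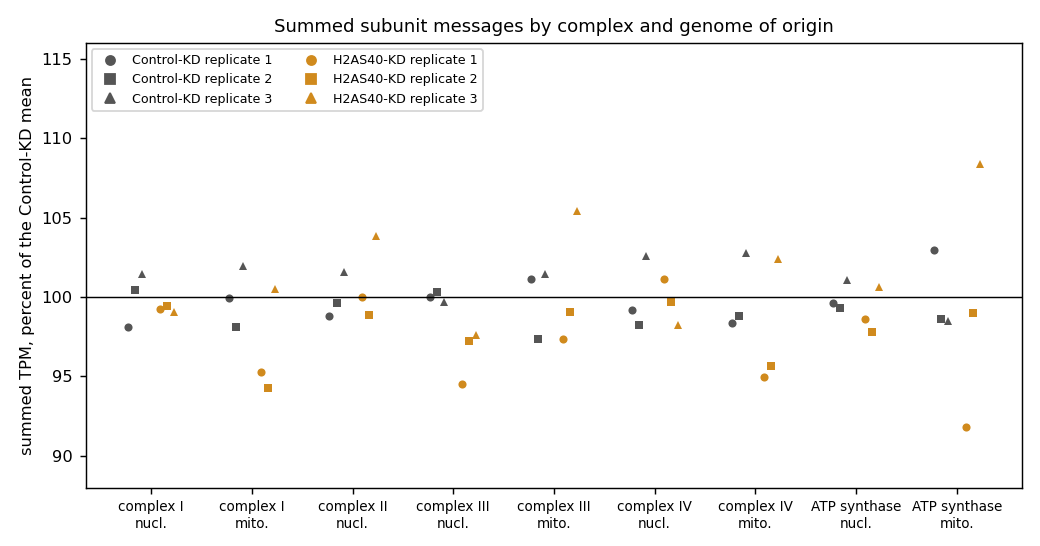
Summed TPM of the subunit genes of each complex and genome in each library, as percent of the Control-KD mean (line at 100). Nuclear complex III is the one nuclear sum without overlap, 3.55% lower on average, and the mitochondrial sums are spread most in the labelled libraries.

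Complex IV, cytochrome c oxidase, held the difference farthest from 0, in the isoform pair COX7B and COX7B2. COX7B is the widely expressed form and COX7B2 is known chiefly from testis. COX7B2 had 6.39, 5.91 and 2.79 TPM in the controls and 2.56, 1.74 and 2.32 in the labelled libraries. The groups did not overlap, but Control-KD replicate 3, the library that stood apart, was only just above the labelled libraries. The log2 difference was -0.86 (95% interval -1.49 to -0.23), the farthest from 0 of the 94, with a limma adjusted p of 0.193. Without Control-KD replicate 3 it was -1.17 with a limma adjusted p of 0.0386, the 1 member called under any of the 16 alternatives, where 159 of 13967 genes (1.14%) were called. Over the alternatives its adjusted p ran from 0.0386 to 0.385. COX7B lay the other way, with 75.6, 86.5 and 78.1 TPM against 85.2, 91.9 and 100.3. These values overlapped, and the log2 difference was 0.20 (limma adjusted p = 0.247). COX7B2 made up 7.80%, 6.40% and 3.45% of the pair in the controls and 2.92%, 1.86% and 2.26% in the labelled libraries. The pair together had 82.0, 92.4 and 80.9 TPM against 87.8, 93.6 and 102.6, which overlapped.

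The promoters of this pair, and of COX6A1 and COX6A2, are printed because the partners differ so much in level. Each line gives the 250 bases before the start from RefSeq (GRCh38.p14), 5′ to 3′ on the gene's strand, with capitals where any of the letters searched above occur on either strand.
COX6A1, chr12:120437863-120438112, plus strand: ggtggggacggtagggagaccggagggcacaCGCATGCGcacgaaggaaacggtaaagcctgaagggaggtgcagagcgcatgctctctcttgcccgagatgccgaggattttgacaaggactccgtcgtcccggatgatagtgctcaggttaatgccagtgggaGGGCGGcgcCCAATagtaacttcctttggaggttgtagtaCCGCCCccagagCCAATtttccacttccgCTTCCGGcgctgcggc
COX6A2, chr16:31428361-31428610, minus strand: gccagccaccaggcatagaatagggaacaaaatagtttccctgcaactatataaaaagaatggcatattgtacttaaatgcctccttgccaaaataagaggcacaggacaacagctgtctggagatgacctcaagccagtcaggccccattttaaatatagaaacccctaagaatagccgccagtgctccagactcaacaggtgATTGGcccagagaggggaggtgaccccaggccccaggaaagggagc
COX7B, chrX:77899218-77899467, plus strand: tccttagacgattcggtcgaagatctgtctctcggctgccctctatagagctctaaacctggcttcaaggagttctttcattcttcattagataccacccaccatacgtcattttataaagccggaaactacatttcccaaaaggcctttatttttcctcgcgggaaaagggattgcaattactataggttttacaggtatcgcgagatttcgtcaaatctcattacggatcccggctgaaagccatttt
COX7B2, chr4:46909246-46909495, minus strand: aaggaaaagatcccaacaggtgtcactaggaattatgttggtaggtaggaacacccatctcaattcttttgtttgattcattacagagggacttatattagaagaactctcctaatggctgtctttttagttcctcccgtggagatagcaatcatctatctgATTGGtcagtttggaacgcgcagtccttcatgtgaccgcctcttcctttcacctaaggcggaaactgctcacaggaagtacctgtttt
COX6A1 was 60% G and C with 19 CpG, and COX6A2, listed at 0, was 49.2% with 1. COX7B and COX7B2 were both 43.2% G and C, with 13 and 5 CpG. Isoform genes not printed lay both ways. COX7A2 (mean 399 TPM) was 36.4% with 0 CpG, and COX6B2 (mean 0.0901 TPM) was 72.8% with 26. COX8A (mean 969 TPM) had 16 CpG and COX8C (mean 0.102 TPM) had 8. Of the letters searched, none lay in this stretch of COX7B, and COX7B2 and COX6A2 each held the NFY letters alone. In the searched window of 300 bases, which runs past the start, COX7B held the NFY letters too. The median over the 67 tested members with a promoter was 60.8% and 18 CpG, against 65.2% and 21 CpG for all tested protein-coding genes.

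**Figure D4:**
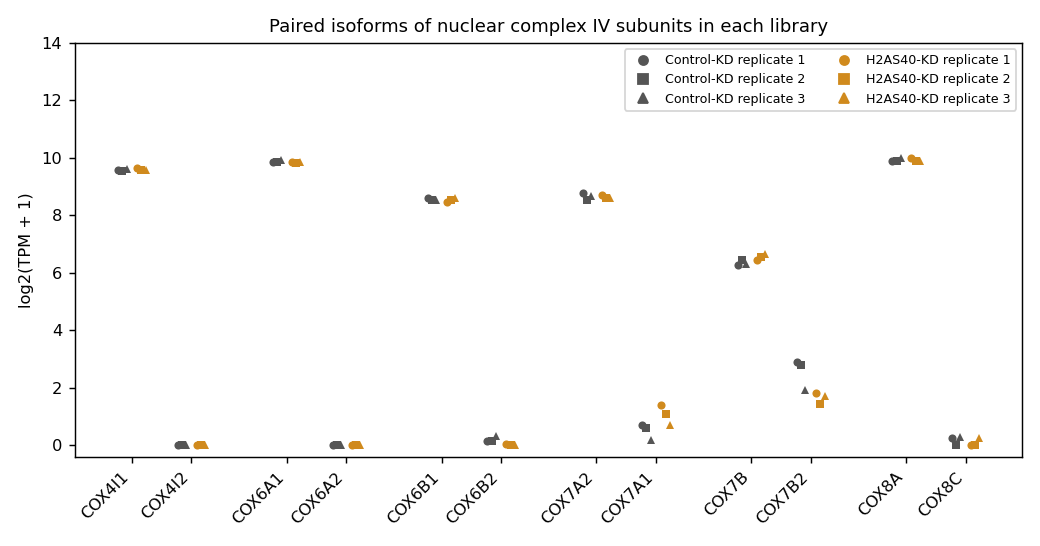
Paired isoforms of complex IV subunits in each library, on log2(TPM + 1), with the widely expressed form on the left of each pair. COX7B2 is the only second isoform above 1 TPM in every library, and COX4I2 and COX6A2 are listed at 0.

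The rest of nuclear complex IV lay close to equality, with log2 differences from -0.07 to 0.06 over 11 genes. COX6C, the most abundant nuclear gene of all 5 complexes, had 1163, 1196 and 1244 TPM against 1244, 1212 and 1139. COX6B1, which joins the monomers of the enzyme, had 372 ± 9.59 and 368 ± 15.4 TPM (SD, n = 3), and COX7A2 had 400.2 ± 33.7 and 398 ± 12.9. COX7A2L, which takes part in supercomplex assembly, had 151 ± 3.40 and 157 ± 3.65 TPM. NDUFA4, a complex IV subunit despite its name, had 68.4, 72.5 and 70.6 TPM against 66.0, 73.2 and 82.3. The groups overlapped for each of these 5 genes.

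In the ATP synthase the summed messages of the catalytic head were separate between the groups. Those of the c ring and of the stalk (1136 and 1122 TPM as group means) were not. Of its 19 tested nuclear genes 21.1% did not overlap (2 higher, 2 lower), against 24.2% of all tested genes. The 5 nuclear F1 genes summed to 1568, 1560 and 1541 TPM in the controls and 1531, 1522 and 1472 in the labelled libraries, 3.07% lower on average, with no overlap and no test. ATP5F1A, the alpha subunit, had 330.2, 329 and 329 TPM against 313, 309 and 289.6. The controls were nearly identical and the labelled libraries all lower, with a log2 difference of -0.12 ± 0.04 (SE; limma adjusted p = 0.186). ATP5F1B, the catalytic beta subunit, had 672 ± 12.7 and 651 ± 10.6 TPM (SD, n = 3), a log2 difference of -0.05 (limma adjusted p = 0.451). ATP5F1E, the small epsilon subunit, lay the other way, at 82.6, 77.0 and 77.2 TPM against 84.3, 83.2 and 87.3 (0.11, limma adjusted p = 0.307). ATP5F1D had 162, 167 and 129 TPM against 159, 151 and 156, a log2 difference of 0.04 ± 0.09 (SE). Its labelled libraries were above only Control-KD replicate 3, the library that stood apart, and below the other controls. By sign 3 F1 genes lay below 0 and 2 above, with that limit for ATP5F1D.

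The c ring, which turns as protons pass, is coded by 3 genes whose mature proteins are identical. They summed to 894, 901 and 928 TPM in the controls and 904, 917 and 915 in the labelled libraries. ATP5MC1 made up 28.2% ± 1.55 and 29.3% ± 0.971 of it, ATP5MC2 38.0% ± 0.916 and 37.7% ± 0.488, and ATP5MC3 33.8% ± 1.73 and 32.98% ± 0.639 (SD, n = 3). Each share overlapped between the groups. ATP5MF, the most abundant nuclear gene of the complex, had 1087 ± 18.7 and 1074 ± 40.1 TPM, and ATP5IF1, the inhibitor that stops ATP hydrolysis, had 457 ± 13.8 and 439 ± 11.0.

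Mitochondrial genes were lower in 2 of the 3 libraries labelled H2AS40-KD and not in the third. They are copied from both strands of one small circular genome as long precursors that are cut into separate messages. Summed TPM was 33702, 33180 and 34250 in the controls and 31904, 32304 and 34661 in the labelled libraries, so the groups overlapped. Against the Control-KD mean, all 13 genes were lower in labelled replicates 1 and 2, with median deviations of -5.61% and -5.37%, and 5 of 13 were lower in replicate 3, with a median of 1.93%. Medians in the control libraries were 1.01%, -1.71% and 0.702%. The ratio of summed mitochondrial to summed nuclear TPM was 1.48, 1.45 and 1.47 in the controls and 1.40, 1.42 and 1.52 in the labelled libraries. Whether messages were selected by their poly(A) tail is not stated.

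Of the 13 genes 11 lay below 0 with a median log2 difference of -0.05, and 0 were called. That median was -0.03 without labelled replicate 1 or 2, -0.08 without labelled replicate 3, -0.0067 under quantile scaling and -0.10 with a trend on gene span removed. MT-ND3 had 3311, 3385 and 3373 TPM in the controls and 3239, 3097 and 3269.9 in the labelled libraries, with a log2 difference of -0.07 (limma adjusted p = 0.262). MT-ND5 had 889, 834 and 865 TPM against 814, 802 and 831 (-0.08, limma adjusted p = 0.265). In MT-CO3 the values were 3118, 3093 and 3217 against 2952, 3079 and 3038 (-0.06, limma adjusted p = 0.329). In these 3 of the 13 the groups did not overlap (23.1%, all lower, against 24.2% of all tested genes, 11.3% lower). MT-ND6, the one protein gene on the other strand, had the difference farthest from 0, -0.10 (limma adjusted p = 0.287), with 1278, 1231 and 1351 TPM against 1204, 1159 and 1237, which overlapped. Whether the counting kept strand is not stated, so its reads may include those of the opposite strand.

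MT-CO1 and MT-CO2, which hold the oxygen-reducing and copper centres, had 4426 ± 65.9 and 4332 ± 191 TPM, and 4553 ± 223 and 4484 ± 290.3 TPM (SD, n = 3). MT-CYB, the mitochondrial gene of complex III, had 1547 ± 35.2 and 1557 ± 65.5 TPM. The ATP synthase genes MT-ATP6 and MT-ATP8 were the most spread in the labelled libraries: MT-ATP8 had 4036, 3837 and 3819 TPM against 3544, 3881 and 4240.2. Their annotated frames overlap by 46 bases, and those of MT-ND4L and MT-ND4 by 7, so reads there can be shared. The remaining complex I genes MT-ND1, MT-ND2, MT-ND4 and MT-ND4L had log2 differences of -0.07, -0.05, -0.05 and 0.01. Nuclear copies of mitochondrial genes can take reads too, and of the 404 listed the highest was MTATP6P1, at a mean of 219 TPM.

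**Figure D5:**
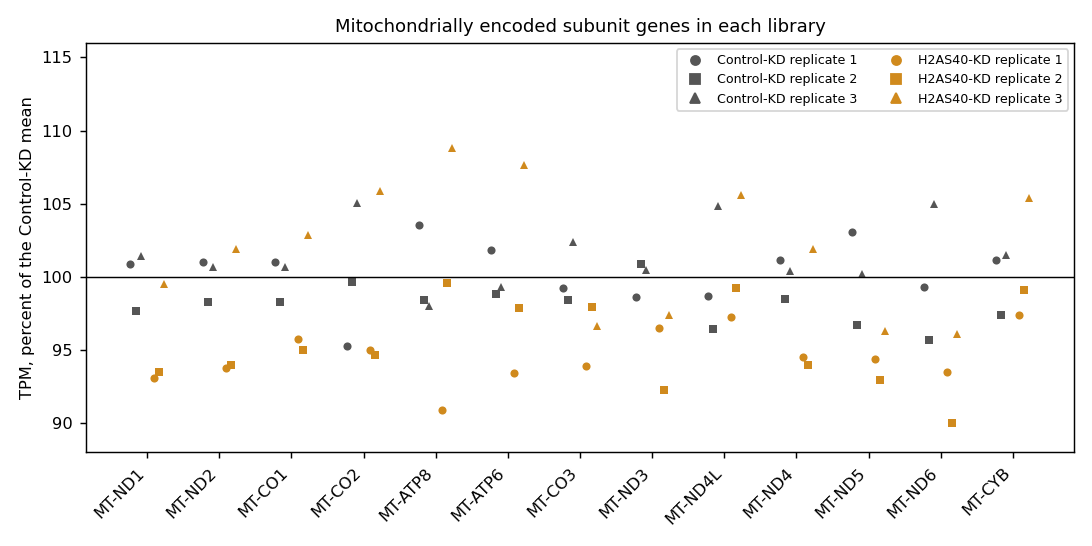
TPM of the 13 mitochondrial genes in each library, as percent of each gene's Control-KD mean (line at 100). H2AS40-KD replicates 1 and 2 lie below the line for all 13 genes, and replicate 3 for 5.

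Genes that build or regulate the complexes were compared in the same fit. Of 215 tested, 1 was called (0.465%, against 1.26% of all genes) and 42 had an unadjusted limma p under 0.05 (19.5%, against 16.5%). The single lists below are short beside a share of 1.26%, so a list without a called gene says little. PPRC1, a coactivator of the PGC-1 family that acts with NRF1, rose from 43.0, 41.3 and 40.5 TPM in Control-KD to 52.9, 53.5 and 58.8 in the labelled libraries, with no overlap, a log2 difference of 0.40 ± 0.06 (SE) and a limma adjusted p of 0.0315. Leaving out any 1 library ended that call, with adjusted p from 0.0546 to 0.117 and log2 differences from 0.35 to 0.42. None of the other 11 regulators was called. NRF1 had 17.2 ± 0.436 and 17.9 ± 0.665 TPM (SD, n = 3), GABPA 10.2 ± 0.400 and 9.497 ± 0.653, and PPARGC1A 5.27 ± 0.524 and 5.83 ± 0.815. ESRRA, the estrogen-related receptor alpha, had 82.7, 82.2 and 32.6 TPM against 96.6, 99.5 and 78.0, with Control-KD replicate 3 far below the rest.

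Genes of mitochondrial DNA upkeep and transcription had 0 of 16 called and a median log2 difference of 0.09, with 4 at an unadjusted limma p under 0.05, all higher (25%, against 8.76% of all genes). TWNK, the helicase of mitochondrial DNA replication, had 38.3, 33.5 and 33.7 TPM against 44.3, 41.3 and 46.0 (limma adjusted p = 0.109), whereas TFAM, which packages that DNA, had 111 ± 4.56 and 106 ± 5.88 (SD, n = 3). Genes of mitochondrial RNA processing had 0 of 16 called, and the smallest p was that of the helicase SUPV3L1 (38.1 and 45.6 TPM, limma adjusted p = 0.234). Mitochondrial ribosomal proteins had 0 of 75 called and 14 at an unadjusted limma p under 0.05 (18.7%, against 16.5% of all genes), 12 higher (16%, against 8.76%) and 2 lower (2.67%, against 7.75%). MRPS2 had the smallest p of them, at 141 ± 6.22 and 165 ± 2.60 TPM (SD, n = 3; limma adjusted p = 0.0639).

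Assembly factors had 0 called of 19 for complex I, 4 for complex II, 6 for complex III, 23 for complex IV and 4 for the ATP synthase. COX11, which delivers copper to complex IV and had the smallest p of its list, had 138, 139 and 144 TPM against 130.2, 123 and 124 (limma adjusted p = 0.124). Most of that list lay the other way, with 14 of 23 above 0 and a median log2 difference of 0.04. At an unadjusted limma p under 0.05, 3 of the 23 were higher and 1, COX11, was lower, against 8.76% and 7.75% of all genes. The smallest p of the other assembly lists belonged to FOXRED1 (28.6 and 32.4 TPM), SDHAF1 (25.2 and 30.6 TPM), UQCC1 (44.7 and 50.9 TPM) and ATPAF2 (31.6 and 24.5 TPM), with limma adjusted p from 0.214 to 0.403. Mobile carriers, coenzyme Q synthesis and nucleotide exchange had 0 of 19 called. In that list CYCS, cytochrome c, had 394 ± 5.97 and 393 ± 6.99 TPM (SD, n = 3), and COQ8B, a kinase-like protein of coenzyme Q synthesis, had 21.8, 19.5 and 15.2 TPM against 28.6, 24.8 and 26.0 (limma adjusted p = 0.144). The citric acid cycle list had 0 of 20 called, with PDHB, a pyruvate dehydrogenase subunit, at 73.5 and 65.1 TPM (limma adjusted p = 0.171). NDUFAB1, the acyl carrier protein bound in complex I and outside the symbol rule, had 194 ± 8.01 and 189 ± 4.003 TPM.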

How the data were processed

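RNA was measured in 6 libraries, 3 labelled Control-KD and 3 labelled H2AS40-KD, grouped by sample title; the 5 chromatin samples were not analysed here. The authors deposited one TPM value per gene and library, length-corrected and scaled to 1000000. The submitters' processing notes name hg38, Bowtie2 and MACS2 with no role, and what computed the TPM is not named in them or in the labels. TPM keep no depth, so read totals are unknown and no counting interval can be given.

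Identifiers were matched to symbols for 34436 of 37247 rows, and coordinates and promoters come from RefSeq tables of GRCh38.p14. A filter of 1 TPM in 3 or more libraries left 14160 genes, which were fitted as log2(TPM + 1) with limma 3.58.1 in R 4.3.3 (trended eBayes). Tests were two-sided, p-values were adjusted by Benjamini-Hochberg over all tested genes, and the threshold was 0.05. Fold changes on this scale understate those of low genes. Sums and medians over members were not tested. The fit was tested on simulated data. The simulated differences were larger than those of nearly all members, so that test says nothing about differences of their size.

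Members and lists were chosen with earlier results of these data known. Named genes were called members, the highest and the smallest-p member of each complex and genome, all mitochondrial and SDH genes, isoform pairs, and the called or smallest-p gene of each other list; genes named after their values were seen are marked or stand as examples. Alternatives were 2 other pseudocounts, 2 filters, 3 scalings, no trend, the replicate number as a term, removal of a trend on gene span, and leaving out each library; their use for the pathway lists was added after the data were seen. Same-numbered libraries did not deviate together (r = -0.0101, -0.0642 and -0.00154), so numbers were not treated as pairs. No library duplicated another: at most 0.113% of genes had identical values.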

Additional observations from a re-analysis of the deposited data

How the results depend on the processing

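The count of called subunit genes was 0 under 15 of the 16 alternatives and 0 to 1 on leaving out 1 library, and every alternative not named here kept each median log2 difference within the spread between replicates. TPM keep no depth, so low genes such as COX7B2 carry an unknown counting error. With the replicate number as a block, 0 of all genes, 0 members and 0 pathway genes were called, and 10 members had an unadjusted p under 0.05; the libraries share only a number. Members at an unadjusted p under 0.05 were 3 without the intensity trend, 25 with the trend on gene span removed and 7 to 13 on leaving out 1 library, against 12. All genes called were 98 with no filter, 10 without the trend and 5 to 159 on leaving out 1 library, against 178. The called pathway gene, PPRC1, was lost (0 called) with no filter, without the trend, with the block and on leaving out any 1 library.

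Removing the gene-span trend moved median log2 differences to -0.040 (nuclear), -0.10 (mitochondrial), -0.035 (complex I nuclear), -0.12 (complex I mitochondrial), -0.089 (complex III nuclear), -0.039 (complex IV nuclear), -0.087 (complex IV mitochondrial) and -0.055 (ATP synthase nuclear), and quantile scaling moved that of complex I mitochondrial to -0.028. On leaving out 1 library, medians that moved by more than the spread between replicates ran from -0.080 to -0.025 (complex III nuclear) and -0.0070 to 0.023 (complex IV nuclear). Of 41 named genes with a fit, the regulator PPRC1 among them, 16 changed sign under some alternative. All 16 were members and had a log2 difference of at most 0.060 in size. The changed values were, under quantile scaling, ATP5MF 0.042, COX4I1 -0.00060, COX6C 0.070, MT-ATP6 0.048, MT-ND4 0.0088 and SDHB -0.015. With the span trend removed they were COX4I1 -0.027, COX8A -0.044, MT-CYB -0.047, MT-ND4L -0.042 and SDHB -0.0063, and under median-of-ratios scaling SDHB -0.0052. On leaving out 1 library, log2 differences ran from -0.029 to 0.026 (ATP5MC2), -0.081 to 0.0029 (ATP5MC3), -0.037 to 0.013 (ATP5MF), -0.0012 to 0.034 (COX4I1), -0.044 to 0.016 (COX6B1), -0.031 to 0.032 (COX6C), -0.071 to 0.051 (COX7A2), -0.031 to 0.044 (COX8A), -0.064 to 0.038 (MT-ATP6), -0.071 to 0.058 (MT-ATP8), -0.076 to 0.013 (MT-CO2), -0.026 to 0.032 (MT-CYB), -0.024 to 0.045 (MT-ND4L), -0.020 to 0.14 (NDUFA4) and -0.018 to 0.027 (SDHB). The cause of these shifts was not tested.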
